A study of Mus musculus with 9 samples.

Results

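Srp54a, Srp54b, Srp54c, Fam177a, Ppp2r3c, Baz1a and Psma6 are protein-coding genes that lie close together on mouse chromosome 12. They were chosen by symbol because some of them were low in 1 control library, so the values of that library and of its batch are given as a description. Of these 7 symbols 6 had a row in the deposited table of 17187 gene symbols, and all 6 averaged at least 0.5 FPKM (fragments per kilobase of transcript, scaled to library size). Srp54c was absent and is not analysed here. RNA came from punches of the medullary brainstem with the raphe nuclei, the cell groups that hold serotonergic neurons, of mice labelled wt (wild type). The mice had been injected in the cortex 3 weeks earlier with AAV2, an adeno-associated virus. The 5 hIL-6 libraries are labelled AAV2-HIL6-GFP for treatment and the 4 GFP libraries AAV2-GFP, so the GFP label is common to both groups and hIL-6 is what sets them apart. The labels place hIL-6 libraries 4 and 5 with GFP library 4 in batch 2, and hIL-6 libraries 1 to 3 with GFP libraries 1 to 3 in batch 1. GFP library 4 is thus the only GFP library of batch 2, and an effect of that library, of its animal or of treatment within that batch cannot be told apart. The labels used here give no strain, age, sex, promoter of the virus or number of mice, and do not say that each library is 1 animal; a p-value here refers only to the variation among libraries, which may be technical.

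SRP54 is the GTPase subunit of the signal recognition particle, which binds the signal peptide of a nascent secretory or membrane protein and brings its ribosome to the endoplasmic reticulum. There the particle docks on its receptor, and the chain passes through the Sec61 channel. The mouse has several Srp54 copies where the human has a single SRP54. Fam177a belongs to a family whose human member FAM177A1 is found at the Golgi. Baz1a (ACF1) is the partner subunit of the ISWI ATPase in chromatin remodelling complexes. Ppp2r3c is a regulatory subunit of protein phosphatase 2A, and Psma6 is an alpha subunit of the 20S core of the proteasome.

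In GFP library 4, Fam177a was listed at 10.99 FPKM, at most 49.8% of its level in any other library, and Srp54a and Srp54b were also lower there than in the other 8 libraries. Baz1a was low in GFP library 4 too, but 1 hIL-6 library of batch 1 was lower still. Ppp2r3c and Psma6, at the far end of the same stretch, stood in GFP library 4 among the values of the other libraries or just above them. Neither listed Srp54 copy was raised in GFP library 4 while the other was low. Within batch 1, whose contrast did not choose the genes, no member passed the test between hIL-6 and GFP libraries by limma.

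By GENCODE M21 on GRCm38 (the assembly mm10) Baz1a occupies chr12:54892989-55014348 on the minus strand. Srp54a follows at chr12:55080262-55115367 on the plus strand and Fam177a at chr12:55124469-55142104, also plus. Srp54b lies at chr12:55155104-55189573 and Srp54c at chr12:55230168-55263836, both on the plus strand. Between Srp54b and Srp54c stands 1700047I17Rik2 (chr12:55199592-55217168, plus), which RefSeq names Fam177a2. It had no row and is not analysed here. Ppp2r3c (chr12:55278991-55302998) is on the minus strand and Psma6 (chr12:55384222-55418454) on the plus strand. The starts of Srp54a and Srp54b are 74.8 kb apart, those of Srp54b and Srp54c 75.1 kb, and those of Fam177a and 1700047I17Rik2 75.1 kb. A unit with 1 Srp54 copy, and in its first 2 occurrences a protein-coding Fam177a copy, thus recurs along the chromosome. After Srp54c lies Gm49376 (chr12:55275381-55278714, plus), an unprocessed pseudogene that shares some sequence with Fam177a and had no row.

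The copies are nearly the same in sequence, which limits how reads can be divided among them. The coding sequences of Srp54a and Srp54b, 1515 bases each, were identical over their whole length. Srp54c differed from either at 6 bases, or 99.6% identity: T501C, T945C, G946A, T965G, A1197T and G1249A. In these the Srp54a base comes first, the position is counted from 1 at the first base of the start codon, and the Srp54c base comes last. The 624 coding bases of Fam177a and 1700047I17Rik2 were identical as well. Bases 922 to 981 of the coding sequence are shown because they hold 3 of the 6 differences, which are in capitals. They are from the GENCODE M21 transcripts, 5′ to 3′.
Srp54a: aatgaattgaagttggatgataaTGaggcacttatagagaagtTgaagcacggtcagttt
Srp54b: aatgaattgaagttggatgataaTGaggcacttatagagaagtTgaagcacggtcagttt
Srp54c: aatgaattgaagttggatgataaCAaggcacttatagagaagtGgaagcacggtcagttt
The Srp54a and Srp54b lines are the same letter for letter, so a read from this stretch fits both genes equally, while 1 from Srp54c could be told apart.

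How much of each transcript is its own was counted in words of 31 bases over all GENCODE M21 transcripts, a length chosen here. Of the distinct words of Srp54a 72.5% also occurred in another gene, against 89.9% for Srp54b, 96% for Srp54c and 98.5% for Fam177a. All words of 1700047I17Rik2 were shared. In Psma6 the share was 1.22%, in Baz1a 9.43% and in Ppp2r3c 11.2%. The main Srp54a transcript, of 4498 bases, had 1026 words of its own and none of them lay within the coding sequence. The main Srp54b transcript had 0 and the main Srp54c transcript 144, all in coding sequence. Fam177a had 59 own words, at the first 59 positions of its 3922-base transcript. Levels of Srp54a, Srp54b and Fam177a as separate genes are therefore uncertain, and the Fam177a row may hold reads of its copy, which was not tested. Ppp2r3c overlaps 1110008L16Rik on the opposite strand; the kit keeps strand, but whether the counting used it is not stated.

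**Figure D1:**
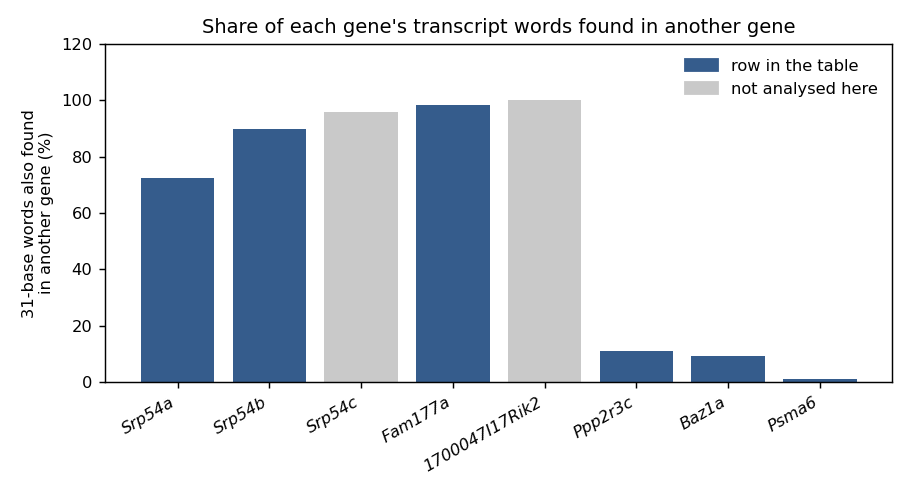
Bars give, for each gene, the percentage of its distinct 31-base transcript words (y axis) that occur in another annotated gene; grey bars are the 2 genes not analysed here. The Srp54 and Fam177a copies stand at 72.5% or more, and Ppp2r3c, Baz1a and Psma6 at 11.2% or less.

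Srp54a, a copy of the SRP GTPase, was listed at 44.7 FPKM in GFP library 4, against 82.3 and 82.7 FPKM in hIL-6 libraries 4 and 5. In batch 1 it stood at 57.6, 59.2 and 59.1 FPKM in the hIL-6 libraries and at 60.7, 59.7 and 64.3 FPKM in the GFP libraries. The value of GFP library 4 was the lowest of all 9 and those of hIL-6 libraries 4 and 5 the highest, with batch 1 between them and no overlap. GFP library 4 thus held 54.2% of the mean of hIL-6 libraries 4 and 5 and 74.4% of the mean of batch 1. On the scale of log2(FPKM + 0.5) these differences were -0.88 and -0.42. In hIL-6 libraries 4 and 5 the gene was at 141% of the hIL-6 mean of batch 1, so the gap within batch 2 is made of a low GFP library and 2 high hIL-6 libraries.

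Srp54b, the copy with the same coding sequence, was at 28.0 FPKM in GFP library 4, against 41.2 and 37.9 FPKM in hIL-6 libraries 4 and 5. Batch 1 gave 46.0, 44.0 and 42.4 FPKM in hIL-6 libraries and 39.4, 45.6 and 41.7 FPKM in GFP libraries. GFP library 4 was again the lowest of all, while hIL-6 libraries 4 and 5 lay at or under the low end of batch 1 and not above it as for Srp54a. The level in GFP library 4 was 70.7% of the mean of hIL-6 libraries 4 and 5 and 64.8% of that of batch 1, with log2 differences of -0.49 and -0.61.

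The 2 rows were added, since reads that fit both copies can be divided between them in more than 1 way. The sum was 72.7 FPKM in GFP library 4, against 123.5 and 120.6 FPKM in hIL-6 libraries 4 and 5. In batch 1 it was 103.6, 103.1 and 101.5 FPKM in hIL-6 libraries and 100, 105.3 and 105.9 FPKM in GFP libraries. The sum varied less among the 6 libraries of batch 1, with a coefficient of variation of 2.16%, than Srp54a at 3.79% or Srp54b at 5.85%. Adding 2 rows tends to lower the relative spread in any case, so this does not show how reads were divided. GFP library 4 held 59.5% of the summed level of hIL-6 libraries 4 and 5 and 70.4% of that of batch 1. The low level in that library was thus present in the sum of the listed copies.

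Srp54b made up 38.5% of the sum in GFP library 4 and 33.4% and 31.4% in hIL-6 libraries 4 and 5. Its share in batch 1 was 42.9% ± 1.37 in hIL-6 libraries and 40.7% ± 2.26 in GFP libraries (SD, n = 3 each), over a range of 39.3% to 44.4%. All 3 libraries of batch 2 lay under that range. Within batch 2, the copy that differed most between GFP library 4 and the hIL-6 libraries was Srp54a. Neither listed copy was higher in GFP library 4 than in any other library.

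**Figure D2:**
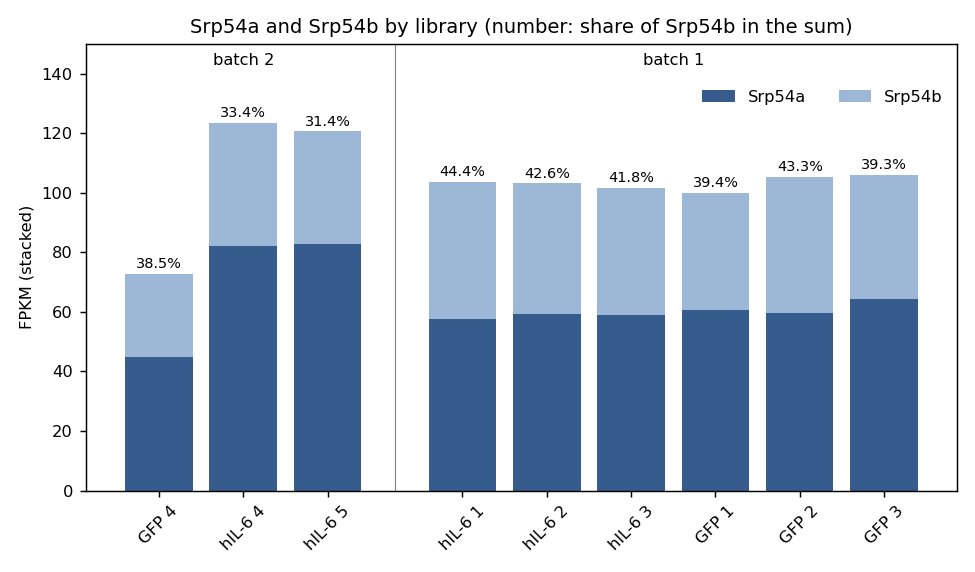
Stacked bars give the FPKM of Srp54a and Srp54b in each library (x axis; batch 2 left of the line, batch 1 right of it), and the percentage above a bar is the share of Srp54b in the sum. The sum was 72.7 FPKM in GFP library 4, 123.5 and 120.6 FPKM in hIL-6 libraries 4 and 5, and 100 to 105.9 FPKM in batch 1.

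Fam177a, the Golgi family gene between Srp54a and Srp54b, was listed at 10.99 FPKM in GFP library 4, against 23.0 and 24.1 FPKM in hIL-6 libraries 4 and 5. Its values in batch 1 were 22.9, 22.9 and 24.8 FPKM in hIL-6 libraries and 22.0, 23.0 and 25.9 FPKM in GFP libraries. The other 8 libraries agreed closely and GFP library 4 stood alone, at 49.8% of the lowest of them. Unlike Srp54a, Fam177a was not raised in hIL-6 libraries 4 and 5, whose mean was 100.2% of the hIL-6 mean of batch 1. The log2 difference was -1.07 against hIL-6 libraries 4 and 5 and -1.07 against batch 1. Depth as read from the steps of low FPKM values implied about 1817 scaled fragments for the Fam177a row in GFP library 4. In the other 8 libraries it implied 2669 to 4010. The total of the row thus did not rest on a few reads. Of the distinct words of Fam177a 98.5% also occurred in another gene, so most of these fragments could fit its copy as well. How many came from Fam177a itself was not tested.

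Fam177a stood lower in GFP library 4, relative to the other libraries, than the Srp54 copies on either side of it. As a share of the Srp54 sum it was 15.1% in GFP library 4, 18.6% and 20% in hIL-6 libraries 4 and 5, and 21.9% to 24.5% in batch 1. In bulk tissue fewer cells that express a gene and less RNA per cell cannot be told apart.

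Baz1a, the ISWI partner subunit, was a low gene throughout. It was at 0.386 FPKM in GFP library 4, against 1.06 and 1.32 FPKM in hIL-6 libraries 4 and 5. In batch 1 the hIL-6 libraries gave 0.870, 0.597 and 0.337 FPKM and the GFP libraries 0.955, 0.939 and 1.00 FPKM. GFP library 4 was far from the other GFP libraries, yet hIL-6 library 3 was lower, so its level was inside the range of the other 8. The log2 difference was -0.92 against hIL-6 libraries 4 and 5 and -0.51 against batch 1, a scale that understates the change of low genes. Its coefficient of variation in batch 1, 33.5%, was the highest of the members. Gm20403, annotated within the Baz1a span and sharing words with it, was at 0.461 FPKM in GFP library 4 and at 0.700 FPKM or more in the others.

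Ppp2r3c, the phosphatase subunit beyond the repeats, was at 7.42 FPKM in GFP library 4, against 7.33 and 7.37 FPKM in hIL-6 libraries 4 and 5. It ranged from 6.03 to 7.21 FPKM in batch 1, where hIL-6 libraries gave 7.19, 6.92 and 6.03 FPKM and GFP libraries 6.13, 7.21 and 6.06 FPKM. GFP library 4 was the highest of the 9 by a margin smaller than the spread in batch 1, and it did not follow Srp54b. Psma6, the proteasome alpha subunit, was at 100.8 FPKM in GFP library 4, against 102.3 and 102.9 FPKM in hIL-6 libraries 4 and 5 and 94.6 to 112.4 FPKM in batch 1. The log2 differences against hIL-6 libraries 4 and 5 were 0.01 for Ppp2r3c and -0.03 for Psma6.

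**Figure D3:**
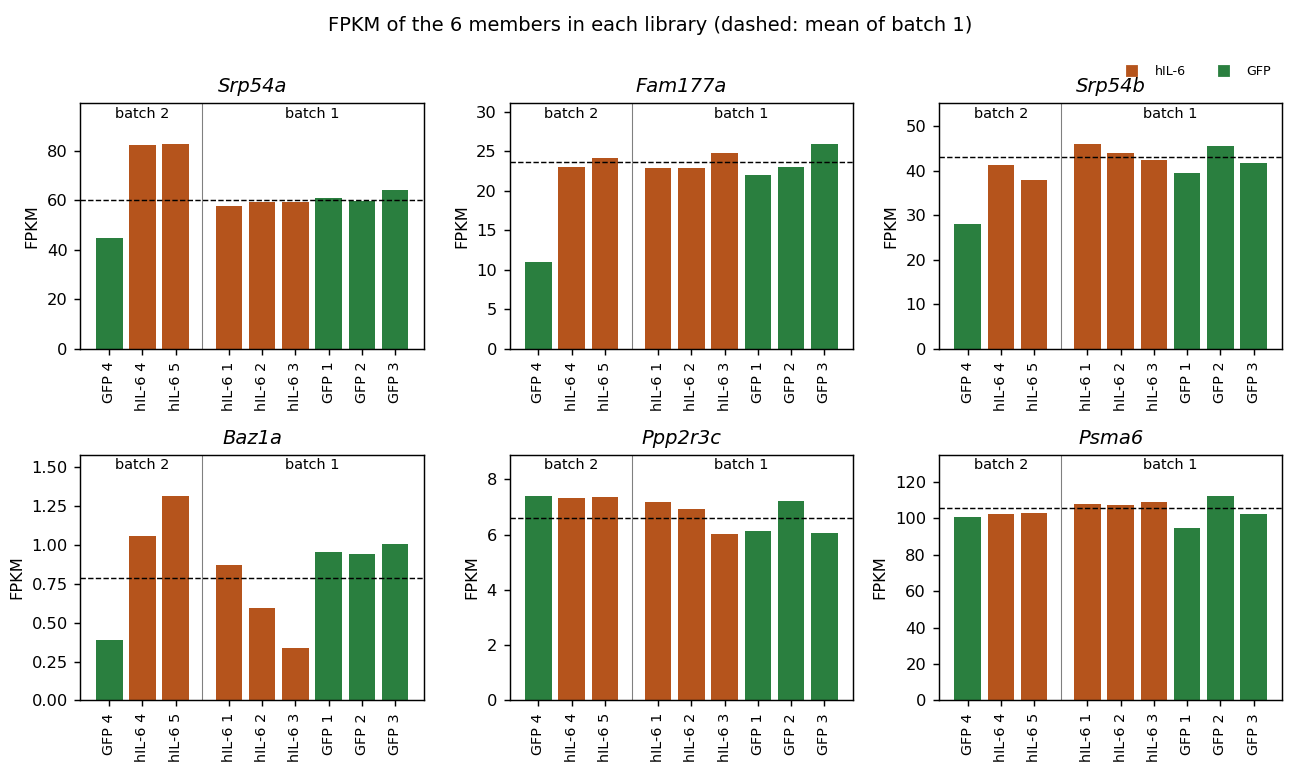
Each panel plots the FPKM of 1 gene (y axis, from 0) in each of the 9 libraries, batch 2 left of the line and batch 1 right of it; the dashed line is the mean of the 6 libraries of batch 1. Fam177a, Srp54a and Srp54b are lowest in GFP library 4, Srp54a is highest in hIL-6 libraries 4 and 5, and Ppp2r3c and Psma6 are close to level.

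Since these values chose the genes, they are set against all 13958 genes that averaged at least 0.5 FPKM and no p is given. GFP library 4 was the lowest of the 9 libraries in Srp54a, Srp54b and Fam177a, which are 3 of the 6 members, and in 15.1% of all genes. The folds that follow are on the scale of log2(FPKM + 0.5), for members and all genes alike. On it GFP library 4 was at least 1.5-fold lower than hIL-6 libraries 4 and 5 in Srp54a, Fam177a and Baz1a and in 1.79% of all genes. Against batch 1 it was at least 1.5-fold lower in Srp54b and Fam177a and in 3.47% of all genes. Against both, Fam177a was at least 1.5-fold lower, as were 1.08% of all genes. Fam177a was also at least 2-fold lower against hIL-6 libraries 4 and 5 (0.48% of all genes), against batch 1 (0.709%) and against both (0.236%). Baz1a is missing from the counts against batch 1, against both and at 2-fold on this scale, where the added 0.5 weighs on low genes. In plain FPKM its value in GFP library 4 was 32.6% of the mean of hIL-6 libraries 4 and 5. It was 49.3% of the mean of batch 1. hIL-6 libraries 4 and 5 were above all 7 others in Srp54a and Baz1a, and in 4.84% of all genes.

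The middle 95% of all genes lay between -0.51 and 0.40 for the difference of GFP library 4 from hIL-6 libraries 4 and 5, and between -0.66 and 0.60 for its difference from batch 1. Ranked from the most negative, Fam177a was number 55 of 13958 in the first difference, Baz1a 84, Srp54a 97 and Srp54b 377. Among the 6753 genes that averaged 10 FPKM or more, where values are more precise, Fam177a was number 7, Srp54a 13 and Srp54b 66. In these genes GFP library 4 was the lowest of all libraries in 17.1%, at least 1.5-fold lower than hIL-6 libraries 4 and 5 in 0.607%, Srp54a and Fam177a included, and 1.5-fold lower against both in 0.341%, Fam177a included. In 7 of those 6753 genes (0.104%) GFP library 4 was under 75% of the lowest other library, and Fam177a at 49.8% and Srp54b at 73.8% were among them. Srp54a, at 77.6%, was just outside.

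**Figure D4:**
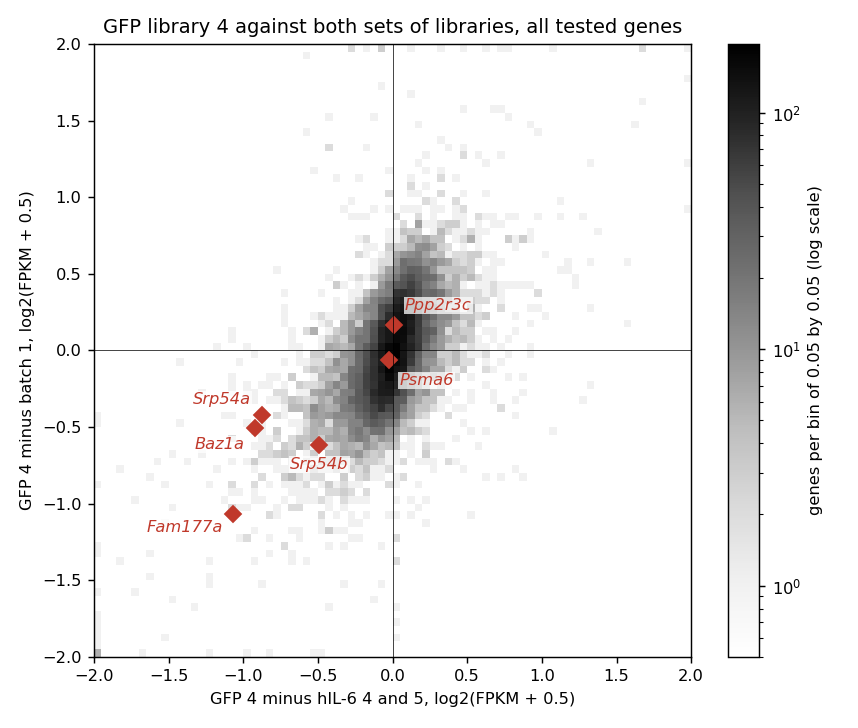
Grey squares count all 13958 tested genes (log colour scale) by the difference of GFP library 4 from hIL-6 libraries 4 and 5 (x axis) and from batch 1 (y axis), in log2(FPKM + 0.5), with genes past either end drawn in the outermost bins; red diamonds are the 6 members. Fam177a lies at -1.07 on both axes, Srp54a, Baz1a and Srp54b lie below 0 on both, and Ppp2r3c and Psma6 lie in the dense centre.

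Other genes of the stretch were set beside the members to see whether they followed. Within 1 Mb of the span from Baz1a to Psma6, 14 other genes had a row and 13 passed the filter, 3 of them inside the span. On the scale of log2(FPKM + 0.5) none of the 13 was 1.5-fold lower in GFP library 4 than in hIL-6 libraries 4 and 5. Over all genes 1.79% were, a share so low that 13 genes may well hold none. In plain FPKM Gm20403 was 1.5-fold lower, at 0.461 FPKM in GFP library 4, against 0.7499 and 0.7884 FPKM in hIL-6 libraries 4 and 5. It was also the 1 neighbour of 13 that was lowest in GFP library 4, beside 15.1% of all genes. The median log2 difference of the 13 was 0.02 with a range of -0.40 to 0.40, beside a median of 0.01 over all genes. Against batch 1 the median was 0.16. There 1 gene, the pseudogene Rpl31-ps17 with a mean of 0.543 FPKM, was 1.5-fold lower, beside 3.47% of all genes.

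The genes that flank the repeats were not low. 2700097O09Rik is on the minus strand, and its 5′ end lies just before the start of Srp54a. It was at 4.42 FPKM in GFP library 4, against 4.21 and 3.76 FPKM in hIL-6 libraries 4 and 5. In batch 1 it ranged from 3.23 to 3.93 FPKM. On the far side Ppp2r3c was also not low. Srp54a, Fam177a and Srp54b, each lowest in GFP library 4, stand next to each other among the genes with a row, between these 2. Gm20403, also lowest there, and Baz1a lie beyond 2700097O09Rik. 1110008L16Rik (RefSeq Prorp, the mitochondrial RNase P endonuclease) differed by -0.07 in log2 from hIL-6 libraries 4 and 5.

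Before the span, the nearest genes with a row were Cfl2 (cofilin 2, an actin-severing protein), Snx6 (a sorting nexin), Rpl31-ps17, Eapp and Sptssa (a small subunit of serine palmitoyltransferase). Their log2 differences from hIL-6 libraries 4 and 5 were 0.07, -0.03, 0.40, 0.09 and 0.02. After it, Nfkbia (an inhibitor of NF-kappaB) differed by -0.26, Ralgapa1 by -0.01, Brms1l by 0.01 and Mbip by 0.32, while Insm2 did not pass the filter. On chromosome 12 as a whole 14 of 475 tested genes, or 2.95%, were at least 1.5-fold lower than in hIL-6 libraries 4 and 5. The share over all genes was 1.79%, and the chromosome's median was 0.03. The 14 include the members Srp54a, Fam177a and Baz1a, so the chromosome's share partly counts genes that were chosen by low values.

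**Figure D5:**
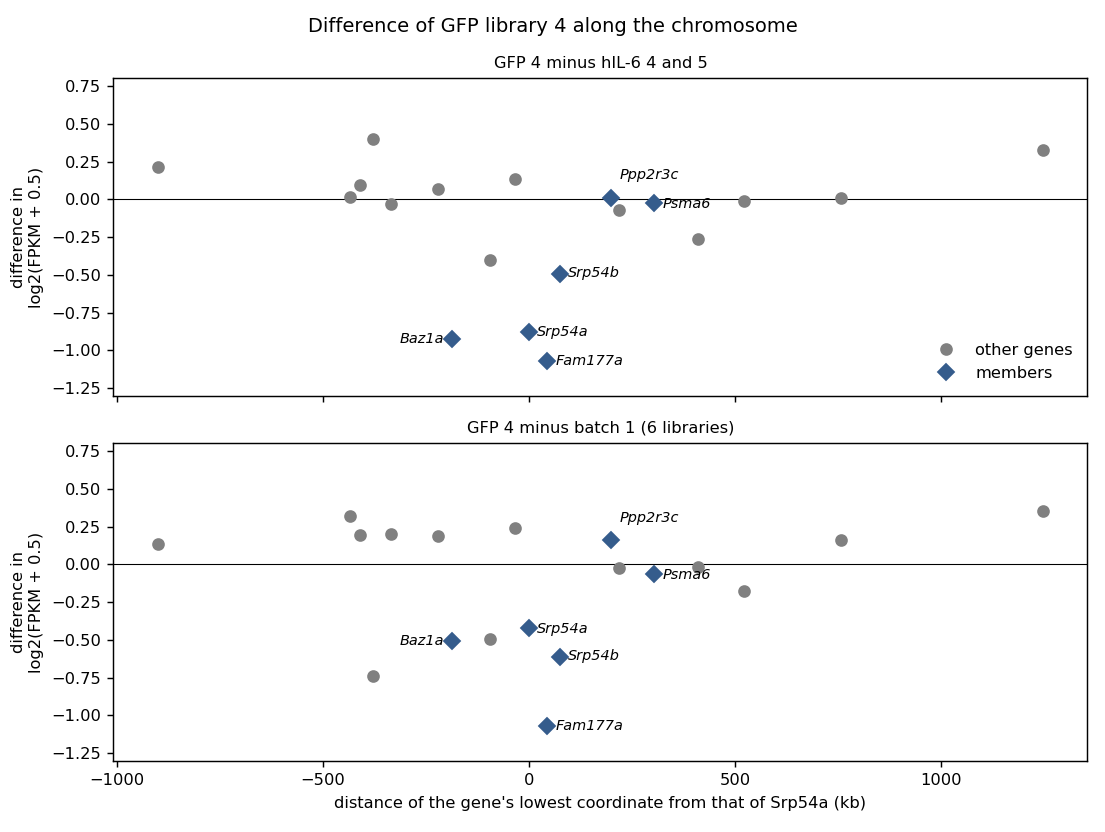
Points give the difference of GFP library 4 in log2(FPKM + 0.5) from hIL-6 libraries 4 and 5 (top) and from batch 1 (bottom), for each tested gene within 1 Mb, by the distance in kb of its lowest coordinate from that of Srp54a. Srp54a, Fam177a, Srp54b and Baz1a lie between -0.42 and -1.07 in both panels, and Gm20403 lies at -0.40 (top) and -0.49 (bottom). Most other genes, Ppp2r3c and Psma6 lie near 0.

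Whether hIL-6 moved the members was tested within batch 1, which has 3 hIL-6 and 3 GFP libraries and no library that chose the genes. No member passed limma with Benjamini-Hochberg adjustment, nor did any of the 13958 genes (0%), with 396 at an unadjusted p under 0.05 and a smallest adjusted p of 0.318. Without hIL-6 library 3 the count was 1 gene, which was no member. Srp54a averaged 58.6 ± 0.904 FPKM in hIL-6 and 61.5 ± 2.38 FPKM in GFP libraries (SD, n = 3 each). Its log2 fold change was -0.07 ± 0.06 (SE), with adjusted p = 0.9996 by limma, and all 3 hIL-6 libraries lay under the 3 GFP libraries. Fam177a averaged 23.5 ± 1.13 FPKM in hIL-6 and 23.7 ± 2.03 FPKM in GFP libraries (SD, n = 3 each), a log2 fold change of -0.01 ± 0.08 whose sign turned when libraries were rescaled to 1 median (0.003168).

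Srp54b, with a log2 fold change of 0.07 ± 0.08, Ppp2r3c, with 0.05 ± 0.11, and Psma6, with 0.07 ± 0.07, also differed by no more than about their SE. Baz1a had the widest gap of the members, 0.601 ± 0.267 FPKM in hIL-6 and 0.966 ± 0.0341 FPKM in GFP libraries (SD, n = 3 each). Its log2 fold change was -0.44 ± 0.20 and its adjusted p 0.9996 by limma, while the unadjusted p was 0.063. The fold change was -0.26 without hIL-6 library 3, the lowest of all in this gene, and -0.68 with a pseudocount of 0.1. The Srp54 sum was 102.7 ± 1.12 FPKM in hIL-6 and 103.8 ± 3.23 FPKM in GFP libraries (SD, n = 3 each), a difference of -1.01 FPKM with p = 0.6 by a two-sided exact permutation test. With 3 against 3 libraries that test cannot go under 0.1.

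Adding batch 2 brings in the libraries that chose the genes, so these values have no test. With all 9 libraries and batch as a term the log2 fold change of hIL-6 over GFP was 0.22 ± 0.15 for Srp54a, 0.20 ± 0.08 for Srp54b and 0.32 ± 0.17 for Fam177a. Each of the 3 was larger than within batch 1, where none of these 3 passed 0.07 in size. No gene was called by limma in that fit (0%), with 543 at an unadjusted p under 0.05; without hIL-6 library 2 there were 2 calls. Within the hIL-6 group, batch 2 over batch 1 gave log2 fold changes of 0.49 ± 0.06 for Srp54a, 0.64 ± 0.25 for Baz1a, -0.16 ± 0.07 for Srp54b and 0.00 ± 0.07 for Fam177a. In that comparison 19 genes (0.136%) were called by limma, 12 higher and 7 lower. With a filter at a mean of 1 FPKM the counts were 148 and 134, and with no mean-variance trend 2 and 0. Without hIL-6 library 2, 3, 4 or 5 in turn 1 to 4 genes were higher and 0 to 2 lower, and without hIL-6 library 1 10 and 2. Of the copies, Srp54a was thus high in hIL-6 libraries 4 and 5 without Srp54b or Fam177a being high.

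Partners of the members were taken from pathway lists. Of the genes that work with SRP54 in the particle and its receptor 7 were tested. None was called by limma in batch 1, where 0% of all genes were called. None was 1.5-fold lower in GFP library 4 than in hIL-6 libraries 4 and 5, beside 1.79% of all genes, and none was 1.5-fold higher. With shares this low 7 genes may well hold none. The log2 differences of the 7 from hIL-6 libraries 4 and 5 lay between -0.08 and 0.11, with a median of 0.04 beside 0.01 for all genes. Srp68, a protein of the particle's core, was at 31.1 FPKM in GFP library 4, against 30.3 and 30.3 FPKM in hIL-6 libraries 4 and 5. Srp72, its binding partner, was at 40.1 FPKM, against 39.2 and 35.5 FPKM. The Srp54 sum was therefore 204% of the mean of Srp68 and Srp72 in GFP library 4, 356% and 367% in hIL-6 libraries 4 and 5 and 278% to 312% in batch 1. In batch 1 the smallest p in the list belonged to Srprb, the receptor's beta subunit, with a log2 fold change of 0.08 ± 0.08, then Srpr, the alpha subunit, with -0.04 ± 0.06, and Srp9 with 0.03 ± 0.07.

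Downstream of the particle, 15 genes of the Sec61 channel, of proteins that work beside it and of the signal peptidase were tested, with no call. Their median difference of GFP library 4 from hIL-6 libraries 4 and 5 was -0.01, with a range of -0.36 (Sec61b) to 0.18 (Sec63). Sec11a, a catalytic subunit of signal peptidase, had a batch 1 log2 fold change of 0.24 ± 0.12, Sec63 one of -0.17 ± 0.09 and Ssr2 one of 0.08 ± 0.07. For Psma6, the other 13 genes of the proteasome core had a median difference in GFP library 4 of -0.04 and no call, with batch 1 log2 fold changes of -0.08 ± 0.07 for Psmb6, 0.07 ± 0.07 for Psma5 and -0.06 ± 0.06 for Psma4. For Ppp2r3c, 15 other subunits of protein phosphatase 2A had a median of 0.03 and no call, and Ppp2r5c, Ppp2r2c and Ppp2r2d had batch 1 log2 fold changes of 0.13 ± 0.07, 0.08 ± 0.06 and -0.08 ± 0.09.

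For Baz1a, 10 genes of the ISWI remodellers had a median of 0.00 and no call. Baz2a, the large subunit of another ISWI complex, had a batch 1 log2 fold change of -0.42 ± 0.18 with an unadjusted p of 0.050 and an adjusted p of 0.9996 by limma. Pole3, a histone-fold protein of the CHRAC complex, had -0.05 ± 0.10 and Rsf1 had -0.06 ± 0.12. Over the 5 lists GFP library 4 was the lowest of the 9 in 10 of 60 genes, or 16.7%, beside 15.1% of all genes. The lack of calls in the lists is shared by all genes (0% called in batch 1).

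The genes whose levels over the 9 libraries were most like those of Srp54a were named by Pearson's r of log2(FPKM + 0.5), as a description. They share the libraries, and each r partly restates how GFP library 4 and hIL-6 libraries 4 and 5 stand. Ankrd28, a regulatory subunit of protein phosphatase 6, came first with r = 0.959 (n = 9). Spearman's rho was 0.9. It was at 1.4 FPKM in GFP library 4, against 3.16 and 3 FPKM in hIL-6 libraries 4 and 5 and 1.6 to 2.09 FPKM in batch 1. Without hIL-6 libraries 4 and 5, the 2 farthest from the Srp54a median, r was 0.863. Scnn1a, an epithelial sodium channel subunit, followed with 0.914, Msn (moesin, which ties actin to the membrane) with 0.883, Oplah with 0.858 and Vrk3 with 0.847. They lie on other chromosomes.

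For Fam177a the most alike were Tshz1 with r = 0.943, Trip6 with 0.929, Plekhg3 with 0.917 and Hoxa4 with 0.916 (n = 9 each); Spearman's rho was 0.733, 0.5, 0.633 and 0.25 for them. Without GFP libraries 4 and 3, the 2 farthest from the Fam177a median, r became 0.366, 0.350, 0.0261 and -0.465. The likeness thus rests on those libraries. Plekhg3 lies on chromosome 12, though not among the genes within 1 Mb of the span, and Tshz1, Trip6 and Hoxa4 lie on other chromosomes. Between the members, r was 0.877 for Srp54b and Fam177a over 9 libraries and -0.155 without GFP library 4. For Srp54a and Srp54b it was 0.391, with -0.668 when GFP library 4 was left out and 0.856 when hIL-6 libraries 4 and 5 were. For Srp54a and Fam177a it was 0.669, with 0.124 and 0.972 for the same omissions.

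GFP library 4 stood apart in other ways too, and their part in the result was not tested. The tissue label fits the markers, since Tph2 of serotonergic neurons was at 44.6 FPKM in GFP library 4 and 11.9 to 49.98 FPKM in the others. The 4 motor neuron markers summed to 12.4 FPKM in GFP library 4, against 48.4 and 30.6 FPKM in hIL-6 libraries 4 and 5 and 10.1 to 48.1 FPKM in batch 1. Of these, Chat and Slc5a7 were lowest in GFP library 4. Both markers of caudal hindbrain position, Hoxb5 and Hoxc4, were lowest there and summed to 7.37 FPKM, against 30.3 and 22.7 FPKM in hIL-6 libraries 4 and 5 and 12.9 to 26.1 FPKM in batch 1. The 2 oligodendrocyte markers, Mbp and Mog, were lowest there as well and summed to 5240 FPKM, against 5450 and 6330 FPKM in hIL-6 libraries 4 and 5 and 5520 to 7720 FPKM in batch 1. The 3 pituitary markers summed to 0.409 FPKM, against 31.2 and 0.268 FPKM and 0.0795 to 77.5 FPKM, with Gh listed at 0 in GFP library 4. Marker sums of serotonergic neurons, noradrenergic neurons, granule cells, choroid plexus, astrocytes, microglia and endothelium lay within the range of the other libraries. The glycinergic marker Slc6a5, at 108 FPKM, was above their 64.9 to 91.7 FPKM.

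Of genes able to differ between laboratory mouse strains or substrains, 6 were listed. The labels used here give no strain, and whether strain had a part in the low values was not tested. In these 6 genes GFP library 4 lay near the mean of hIL-6 libraries 4 and 5. Nnt, which carries a deletion in C57BL/6J mice, was at 1.10 FPKM in GFP library 4, against 0.518 and 1.74 FPKM in hIL-6 libraries 4 and 5 and 0.480 to 2.17 FPKM in batch 1. Ide was at 14.9 FPKM in GFP library 4, against 14.1 and 14.5 FPKM, and Entpd4 at 62.4 FPKM, against 61.6 and 59.2 FPKM. In batch 1 Ide ranged from 9.87 to 14.7 FPKM and Entpd4 from 48.3 to 59.4 FPKM. GFP library 4 was thus the highest of the 9 libraries in both. For Glo1 GFP library 4 gave 77.7 FPKM, against 79.8 and 76.7 FPKM, and for Wdfy1 3.88 FPKM, against 3.71 and 3.76 FPKM. Fgfbp3 was at 1.37 FPKM in GFP library 4, against 1.64 and 1.27 FPKM, and was listed at 0 in hIL-6 library 1. All 6 differed in GFP library 4 from the mean of hIL-6 libraries 4 and 5 by between -0.05 and 0.09 in log2. For Nnt those 2 libraries were themselves far apart. None was called by limma in batch 1, where 0% of all genes were called.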

How the data were processed

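The values were FPKM per gene symbol, deposited by the authors as 1 column per library with no pooling, from poly(A) RNA and a stranded kit per the labels' protocols. The submitters' processing notes name kallisto, DESeq2 and mm10; versions, annotation and library scaling were not stated. Symbols were matched to GENCODE M21 (16429 of 17187). Genes that averaged 0.5 FPKM or more over the 9 libraries were tested on log2(FPKM + 0.5) with limma 3.58.1 in R 4.3.3, two-sided, with a mean-variance trend and Benjamini-Hochberg adjustment over 13958 genes (threshold 0.05). The test was hIL-6 against GFP within batch 1; other differences are descriptions. No count test was run, since depth could be read from low values only for genes with 1 transcript: 96.9% to 98.2% of those were whole multiples within 0.05, by a step chosen to raise that share, and the steps put relative depth between 31.5 (GFP library 3) and 46.5 (hIL-6 library 4), in GFP library 4 at 44.2. The fit was tested on simulated data with known changes. Members, lists and rules were chosen with earlier results of these data known. Named were all members, the nearest 5 tabled genes on either side, the 5 genes most alike to Srp54a and to Fam177a, the 3 genes with the smallest batch 1 p of each pathway list and all of the strain list; predicted genes were left out of the likeness. Alternatives were pseudocounts, filters, rescaling, no trend, a replicate block and leaving out libraries.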

Additional observations from a re-analysis of the deposited data

Results flagged for a closer look

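Srp54a went opposite ways in the 2 batches. In batch 2 hIL-6 minus GFP was 37.81 FPKM, and both hIL-6 libraries were above the GFP library. In batch 1 it was -2.931 FPKM, and all 3 hIL-6 libraries were below the 3 GFP libraries. The difference between the batches was not tested, because the values of batch 2 chose the gene.

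Baz1a did the same at a low level, with hIL-6 minus GFP of 0.7997 FPKM in batch 2 and -0.3651 FPKM in batch 1; this difference was not tested either. Its value of 0.3861 FPKM in GFP library 4 was also far from the other 3 GFP libraries, at 0.939 to 1.00 FPKM, by Dixon's ratio of the gap to the nearest value over the whole range. Of 14 groups examined (the hIL-6 and the GFP libraries, for each member and the Srp54 sum) 1 passed the 95% critical value. For the GFP groups the ratio is a description and no chance rate applies, because low values of GFP library 4 chose the genes. The Srp54 sum also reuses the values of Srp54a and Srp54b. The ratio did not pass for Srp54a, Srp54b or Fam177a, although GFP library 4 is the lowest library in each.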

How the results depend on the processing

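In batch 1 the members and the Srp54 sum had 85 values under other settings, of which 0 passed 0.05 and 5 changed sign. Those of the Srp54 sum could not pass, since its permutation test cannot go under 0.1 with 3 against 3 libraries. Leaving out a library does not lower that floor. Fam177a, at -0.01 in log2, became 0.003168 with libraries rescaled to the same median. On leaving out 1 library it ranged from -0.05503 to 0.06018; it was positive without GFP replicate 3 (0.06018), hIL-6 replicate 1 (0.01401) and hIL-6 replicate 2 (0.0122). The Srp54 sum, at -1.01 FPKM, ranged from -2.869 to 0.07119 FPKM on leaving out 1 library, the positive value being without GFP library 3. The count of genes called higher in batch 1 was 0 to 1 on leaving out 1 library and that with batch as a term 0 to 2. The counts for hIL-6 batch 2 over batch 1, 12 higher and 7 lower, became 3 and 1 with no filter, 148 and 134 with a filter at 1 FPKM, and 2 and 0 with no mean-variance trend. On leaving out 1 library they ranged 1 to 10 higher and from 0 to 2 lower. The 67 genes 2-fold lower in GFP library 4 than in hIL-6 libraries 4 and 5 became 105 against the GFP libraries of batch 1, 142 with a pseudocount of 0.1, 37 with 1 and 250 past 1.5-fold. With a filter at 10 FPKM, chosen after seeing the data, they became 8, and 41 past 1.5-fold. The cause of these changes was not tested. Replicate numbers did not pair the libraries of batch 1: same-numbered libraries had correlations of deviations of 0.0194, -0.106 and 0.27. With the number as a replicate block 0 genes were called; with complete pairs the block cannot move a fold change, so the -0.07 of Srp54a is the same by construction.

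With batch as a term, leaving out GFP library 4 brought Srp54a to -0.07 and Fam177a to -0.01 in log2, since batch 2 then holds hIL-6 libraries alone. All statements on low values in batch 2 controls rest on that 1 library. Reads that fit several copies limit the separate levels of Srp54a, Srp54b and Fam177a, whatever the depth.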
